A study of Danio rerio with 30 samples.

Results

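The genes described here encode the machinery of DNA replication and of mitosis. They were chosen by name: every row of the count table whose symbol, with or without a final paralogue letter, was on a list of 48 cell cycle genes. Of the 48 names, 47 matched (incenp did not), and they gave 49 rows of 20631, of which 22 were replication genes and 27 were mitosis genes. RRM2 and PRC1 each had 2 rows, so reads may be split between them. The list named prc1a and prc1b, and the symbols do not say which PRC1 row is which. Both PRC1 rows, BIRC5 (listed as birc5a) and RRM2B, a separate ribonucleotide reductase gene, came in only through their stems. All 49 rows passed the filter on low counts.

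RNA came from GFP-low cells sorted from Tg(itga2b:GFP) zebrafish embryos at 6 days post fertilisation, a population used for hematopoietic stem and progenitor cells. Each library was made from embryos pooled by genotype, stress and treatment. Heterozygous embryos (Rps14+/-, 16 libraries) had lost 1 copy of rps14, a gene of the small subunit of the ribosome, and wild-type embryos were Rps14+/+ (14 libraries). Embryos were either stressed with phenylhydrazine, which lyses red cells, at 1 µg/mL between 24 and 48 hours post fertilisation (hpf), or left unstressed. From 48 hpf, 20 µM imiquimod, which activates TLR7, or the vehicle DMSO was given for 4 days. The heterozygous groups held 4 libraries (unstressed, DMSO), 3 (unstressed, imiquimod), 5 (phenylhydrazine, DMSO) and 4 (phenylhydrazine, imiquimod). The wild-type groups held 3, 4, 3 and 4 libraries in the same order. The labels do not say whether each library came from a separate pool, so p-values measure only the spread between these libraries.

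Replication starts where the origin recognition complex, CDC6 and CDT1 load the MCM helicase onto DNA. CDC45 and the GINS complex switch the helicase on, PCNA clamps the polymerases to the template, and ribonucleotide reductase and thymidylate synthase supply nucleotides. Cyclin E with CDK2 drives cells into S phase, and cyclin A, cyclin B and CDK1 drive them on into mitosis, where Polo and Aurora kinases, the spindle checkpoint, kinesins and condensin divide the chromosomes. Loss of a ribosomal protein gene is known to set off a growth-arrest response, whose genes include the cyclin-dependent kinase inhibitor cdkn1a and the ubiquitin ligase mdm2.

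Library totals ran between 5703056 and 15238153 counts (median 6894464). RPS14 had 100 to 346 CPM in heterozygotes and 347 to 672 CPM in wild type (log2 fold change -1.25 ± 0.14, SE). CPM is a gene's share of the total count of its library. The RPS14 ranges did not overlap but nearly met, so RPS14 alone does not check the genotype label of libraries near that edge. All 12 stem and progenitor markers had counts in every library, while itga2b itself averaged 10.3 ± 9.16 CPM in heterozygotes and 7.94 ± 10.1 CPM in wild type (SD, n = 16 and 14). Counts in every library do not single out a cell type, as all 6 neutrophil and 14 of 16 erythroid markers had them too. Neutrophil markers summed to 5860 to 32500 CPM, and stem and progenitor markers to 953 to 2830 CPM. Markers of 12 exocrine pancreas genes summed to more than 3000 CPM in 4 heterozygous libraries (unstressed DMSO replicate 3, unstressed imiquimod replicates 2 and 3, phenylhydrazine DMSO replicate 1). Libraries numbered S1 to S6 (3 heterozygous, 3 wild type) had mitosis means of 4.95 to 5.47, inside the 4.59 to 6.12 of S7 to S33.

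CCNG1, a cyclin induced in growth arrest, had 589 to 1910 CPM in heterozygotes (median 1280) and 309 to 481 CPM in wild type (median 366). The ranges did not overlap, and the averaged difference was 1.65 ± 0.11 (edgeR adjusted p = 2.87e-12). Of 22 growth-arrest genes tested, 3 rose (CCNG1, rps27l and mdm2), none fell at that threshold (0.437% of all genes were called), 18 were positive, and the list median was 0.17 against 0.02 for all genes. mdm2 had 72.5 to 226 CPM in heterozygotes (median 109) and 44.5 to 93.9 CPM in wild type (median 64.9), and rose by 0.79 ± 0.12 (edgeR adjusted p = 0.000496). cdkn1a had 9.90 to 77.2 CPM in heterozygotes (median 46.6) and 12.7 to 40.3 CPM in wild type (median 25.6); its difference of 0.68 ± 0.19 did not pass (edgeR adjusted p = 0.109).

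Beside that state, most replication and mitosis genes had slightly higher values in heterozygotes, and none passed the test. Averaged over the 4 conditions, 45 of the 49 rows had a positive log2 fold change for heterozygous over wild type (91.8%, against 52.3% of all 19930 genes tested). The median was 0.26 for replication genes (21 of 22 positive) and 0.32 for mitosis genes (24 of 27 positive), against 0.02 for all genes. None of the 49 passed an adjusted p of 0.05 in edgeR's quasi-likelihood test, in which 0.437% of all genes were called; limma voom called 0 members and DESeq2 called 3 (CCNA2, KIF23 and TTK), where those tools called 0.507% and 1.14% of all genes. At an unadjusted p under 0.05 there were 15 members, all higher in heterozygotes, or 30.6% of members against 8.98% of all genes. In these bulk samples, more dividing cells and more RNA per dividing cell cannot be told apart.

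**Figure D1:**
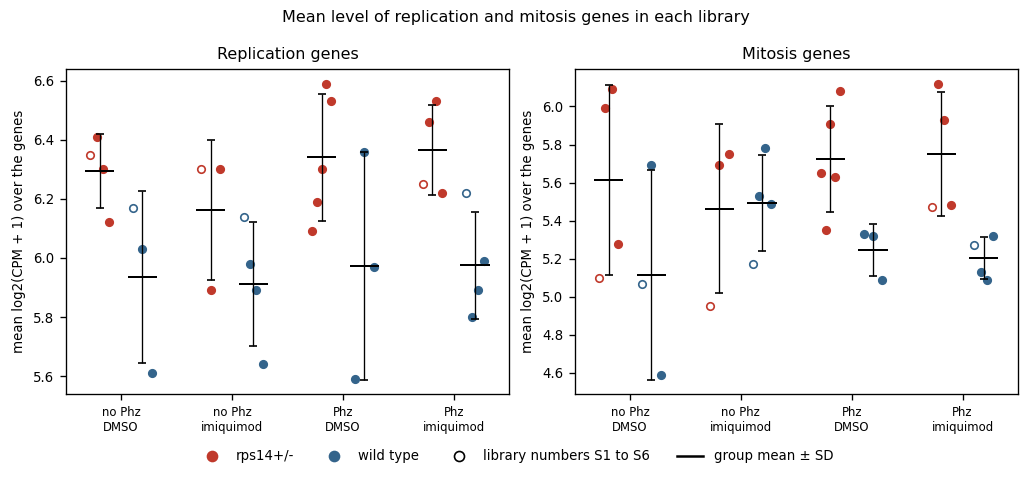
Mean log2(CPM + 1) over the 22 replication rows and over the 27 mitosis rows in each of 30 libraries, heterozygous (red) left of wild type (blue) in each of the 4 conditions; bars show mean and SD, and open circles are libraries S1 to S6. Heterozygous means lie above wild type in all 4 conditions for replication, while for mitosis the unstressed imiquimod groups lie at about the same level.

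As a mean of log2(CPM + 1) per library, the replication genes stood at 5.89 to 6.59 in heterozygotes (6.30 ± 0.18, SD, n = 16) and at 5.59 to 6.36 in wild type (5.95 ± 0.23, n = 14). The mitosis genes stood at 4.95 to 6.12 in heterozygotes (5.65 ± 0.36) and at 4.59 to 5.78 in wild type (5.28 ± 0.30). Both pairs of ranges overlapped. In S1 to S6 the mitosis mean was 5.17 in heterozygotes and 5.17 in wild type, a difference of 0.00, while in S7 to S33 it was 5.77 ± 0.28 in heterozygotes and 5.31 ± 0.33 in wild type, a difference of 0.46. For replication genes the difference was 0.12 in S1 to S6 and 0.42 in S7 to S33. Without the 4 libraries high in pancreas genes, 39 of 49 members were positive and the replication median was 0.26, but the mitosis median was 0.09 with 20 of 27 positive, against a median of -0.08 for all genes. Unstressed heterozygotes in imiquimod then have 1 library, which is also S2. The 12 pancreas markers, 3 of which had counts in every library, were higher in heterozygotes in 11 cases, with a summed level of 479 to 7240 CPM in heterozygotes and 531 to 1520 CPM in wild type. Without S1 to S6, 43 of 49 were positive, with medians of 0.28 and 0.37. Neutrophil markers moved with genotype too: all 6 were lower in heterozygotes (median log2 fold change -0.50), with a summed level of 5860 to 20600 CPM in heterozygotes and 7980 to 32500 CPM in wild type. With that level as a covariate, 46 of 49 members were positive, with medians of 0.19 for replication and 0.32 for mitosis.

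Among the replication genes, the 13 rows of the origin and helicase were higher in heterozygotes in 12 cases, with a median of 0.26. MCM5, a subunit of the helicase ring, had 357 to 654 CPM in heterozygotes (median 550) and 227 to 589 CPM in wild type (median 398). The ranges overlapped over most of their width, and the difference was 0.26 ± 0.12 (95% interval 0.02 to 0.50; edgeR adjusted p = 0.481). CDC6, the helicase loader, had 21.4 to 83.0 CPM in heterozygotes (median 53.2) and 21.7 to 58.5 CPM in wild type (median 40.2), a difference of 0.38 ± 0.18 (edgeR adjusted p = 0.512). The remaining ring subunits lay between 0.09 (MCM4) and 0.28 (MCM2). CDT1, which loads the ring with CDC6, stood at 0.31, and CDC45 at 0.32. ORC1, the ATPase of the origin recognition complex, was the 1 replication gene with a negative value, -0.25 ± 0.20 (interval -0.66 to 0.15). GINS1 stood at 0.30 and GINS2 at 0.05. MCM10, a helicase activator, had no counts in 1 wild-type library (phenylhydrazine, DMSO), which allows up to 3 counts there, and its 0.60 ± 0.45 is poorly measured.

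Nucleotide supply carried the smallest p-values of the replication class. TYMS, thymidylate synthase, had 30.8 to 86.8 CPM in heterozygotes (median 47.2) and 10.4 to 50.3 CPM in wild type (median 32.8). The ranges overlapped between 30.8 and 50.3 CPM, and the difference was 0.51 ± 0.18 (interval 0.14 to 0.87; edgeR adjusted p = 0.295). RRM1, the large subunit of ribonucleotide reductase, had 245 to 564 CPM in heterozygotes (median 336) and 161 to 329 CPM in wild type (median 261), a difference of 0.30 ± 0.11 (interval 0.08 to 0.53; edgeR adjusted p = 0.318). The small subunit RRM2 (ENSDARG00000020711) had 25.9 to 130.0 CPM in heterozygotes (median 64.4) and 24.4 to 81.0 CPM in wild type (median 51.9), a difference of 0.25 ± 0.16 (interval -0.08 to 0.58). The second RRM2 row (ENSDARG00000078069) ran between 0.489 and 27.7 CPM in heterozygotes and between 0.502 and 26.2 CPM in wild type. Its interval of -0.99 to 1.13 leaves its direction unmeasured. RRM2B, whose mammalian counterpart supplies nucleotides for DNA repair, averaged 17.7 ± 9.92 CPM in heterozygotes and 16.6 ± 9.11 CPM in wild type, a difference of 0.02 ± 0.33. PCNA, the polymerase clamp, had 477 to 1240 CPM in heterozygotes (median 738) and 449 to 1050 CPM in wild type (median 556), and differed by 0.18 ± 0.11 (interval -0.05 to 0.40; edgeR adjusted p = 0.690). CCNE2, an S-phase entry cyclin, had 14.2 to 46.4 CPM in heterozygotes (median 23.8) and 8.24 to 25.0 CPM in wild type (median 18.5), a difference of 0.34 ± 0.19 (interval -0.05 to 0.74).

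**Figure D2:**
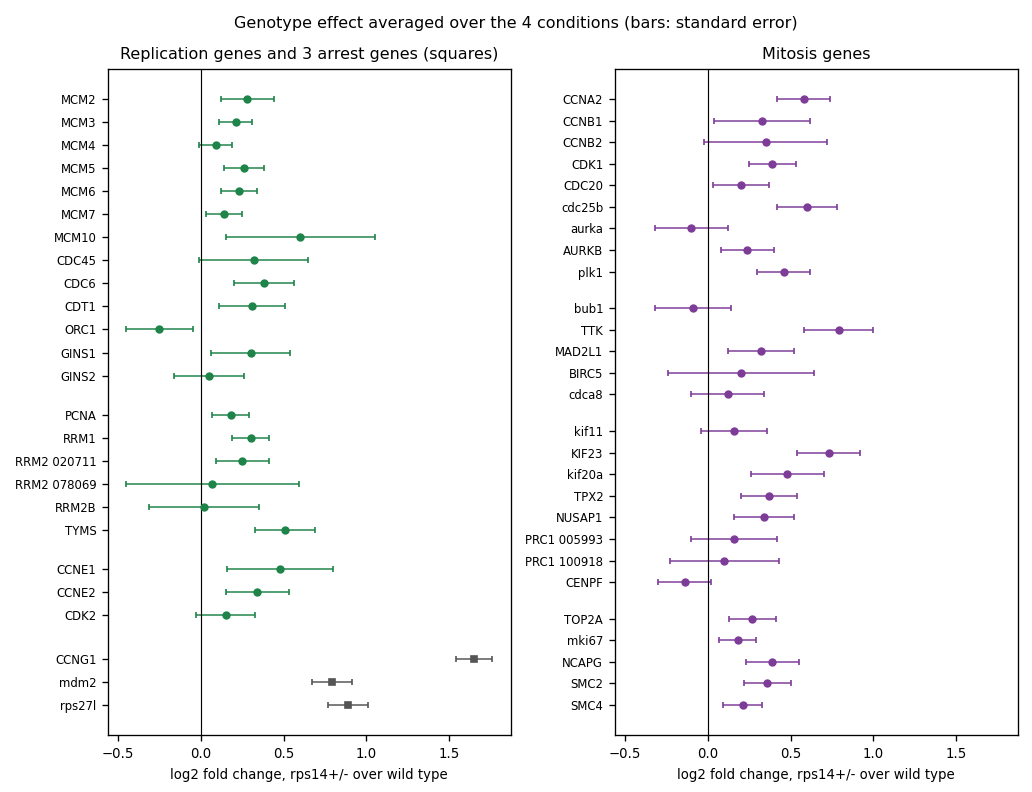
Log2 fold change of heterozygous over wild type, averaged over the 4 conditions, with SE, for each of the 49 rows grouped by role; squares are the arrest genes CCNG1, mdm2 and rps27l. Members lie between -0.25 (ORC1) and 0.79 (TTK), and 45 lie above 0. The highest member is level with mdm2 (0.79) and below CCNG1 (1.65). The squares are only those genes of the growth-arrest list that passed the edgeR test.

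The mitosis genes with the smallest p-values belonged to mitotic entry, the spindle checkpoint and cytokinesis. KIF23, a kinesin of the central spindle that is needed for cytokinesis, had 32.3 to 85.5 CPM in heterozygotes (median 56.4) and 12.1 to 62.2 CPM in wild type (median 29). The wild-type median lay below every heterozygous library, though the ranges overlapped, and the difference was 0.73 ± 0.19 (interval 0.35 to 1.11; edgeR adjusted p = 0.0794). TTK, the checkpoint kinase known as MPS1, had 31.6 to 108 CPM in heterozygotes (median 62.5) and 12.8 to 73.4 CPM in wild type (median 31.8), a difference of 0.79 ± 0.21 (interval 0.37 to 1.22; edgeR adjusted p = 0.0859). CCNA2, cyclin A, had 57.6 to 180.0 CPM in heterozygotes (median 91.3) and 30.7 to 96.8 CPM in wild type (median 61.1), a difference of 0.58 ± 0.16 (interval 0.26 to 0.91; edgeR adjusted p = 0.107). These 3 missed the threshold in the edgeR fit and passed in the DESeq2 fit. Their intervals lay above 0, which follows from their choice by smallest p in the same fit. Over 42 settings run, the difference ran between 0.63 and 0.81 for KIF23, 0.70 and 0.97 for TTK, and 0.52 and 0.67 for CCNA2.

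The triggers of mitotic entry followed. cdc25b, the phosphatase that activates CDK1, had 19.3 to 90.1 CPM in heterozygotes (median 51.1) and 17.1 to 44.3 CPM in wild type (median 31.2), a difference of 0.60 ± 0.18 (edgeR adjusted p = 0.152). plk1, Polo kinase, had 77.2 to 251 CPM in heterozygotes (median 175) and 58.1 to 165 CPM in wild type (median 117), a difference of 0.46 ± 0.16 (edgeR adjusted p = 0.264). CDK1, the mitotic kinase, had 71.2 to 168 CPM in heterozygotes (median 130.0) and 57.5 to 155 CPM in wild type (median 78.3), a difference of 0.39 ± 0.14 (edgeR adjusted p = 0.334). In each of the 3 the ranges overlapped and the heterozygous median was the higher. CCNB1, cyclin B, was more variable, with 0.855 to 44.0 CPM in heterozygotes (median 25.7) and 5.84 to 38.9 CPM in wild type (median 18.7); its interval was -0.26 to 0.91. The lowest heterozygous value, 0.855 CPM, came from S4.

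Genes of chromosome structure were higher in heterozygotes in 5 of 5 cases, with a median of 0.27. The condensin subunit SMC2 averaged 99.2 ± 20.1 CPM in heterozygotes and 70.4 ± 19.3 CPM in wild type, a difference of 0.36 ± 0.14 (edgeR adjusted p = 0.352). TOP2A, the topoisomerase that untangles sister chromatids, had 125 to 300.0 CPM in heterozygotes (median 211) and 84.8 to 244 CPM in wild type (median 166), a difference of 0.27 ± 0.14 (interval -0.01 to 0.55). mki67, which coats mitotic chromosomes, had 156 to 404 CPM in heterozygotes (median 278) and 156 to 342 CPM in wild type (median 212), a difference of 0.18 ± 0.11 (interval -0.05 to 0.41). These last 2 common markers of proliferation therefore overlapped across most of their range. Without the 4 libraries high in pancreas genes TOP2A stood at 0.11, mki67 at 0.02, CDK1 at 0.21 and CCNB1 at 0.06, while KIF23 stood at 0.65, TTK at 0.79 and CCNA2 at 0.54.

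Values below 0 were found for 3 mitosis genes. CENPF, a kinetochore protein, averaged 76.5 ± 30.9 CPM in heterozygotes and 75.2 ± 22.1 CPM in wild type (log2 fold change -0.14 ± 0.16, interval -0.47 to 0.19). The checkpoint kinase bub1 stood at -0.09 ± 0.23 and Aurora A (aurka) at -0.10 ± 0.22, with 23.9 ± 10.1 CPM in heterozygotes and 24.1 ± 12.1 CPM in wild type. The Aurora kinase of the chromosomal passenger complex, AURKB, stood at 0.24 and CDC20, the activator of the anaphase-promoting complex, at 0.20. Averaged over the 4 conditions, a decrease by a log2 of 1 lay outside the 95% interval of all 49 rows. A decrease by 0.5 lay outside that of 42. These intervals are not adjusted for the number of genes. Within single conditions the first count ran from 34 (unstressed imiquimod) to 44 (phenylhydrazine, imiquimod), and the second from 20 to 34 in the same conditions.

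**Figure D3:**
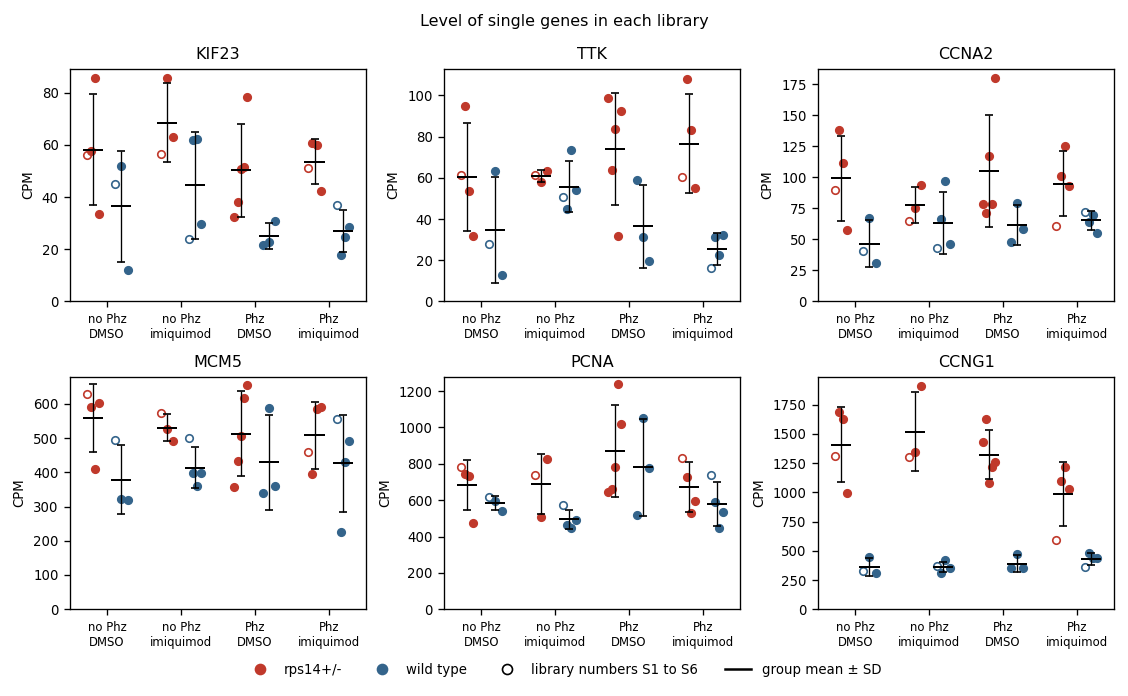
CPM of KIF23, TTK, CCNA2, MCM5, PCNA and CCNG1 in each of 30 libraries, heterozygous (red) left of wild type (blue) in each condition; open circles are S1 to S6. CCNG1 ranges (589 to 1910 CPM in heterozygotes, 309 to 481 CPM in wild type) do not overlap, while those of the other 5 genes do.

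Further listed genes of both pathways lay mostly on the same side. They were read from the same libraries, so they are not independent of the members. Of 44 further replication genes, 40 were positive for heterozygous over wild type (median 0.27), none passed, and 13 had an unadjusted p under 0.05, all higher. The shares of all genes are those given above for this averaged comparison (0.437% called in edgeR). POLA2, of the primase complex, stood at 0.63 ± 0.16 (edgeR adjusted p = 0.0877), POLD1, the catalytic subunit of polymerase delta, at 0.41 ± 0.11, ORC4 at 0.47 ± 0.13 and FEN1, the flap nuclease, at 0.36 ± 0.10. Of 49 further mitosis genes, 42 were positive (median 0.24) and none passed. The separase gene espl1 stood at 0.72 ± 0.24 (edgeR adjusted p = 0.258), the kinetochore gene MIS12 at 0.62 ± 0.21 and the kinesin KIF22 at 0.41 ± 0.13. Of the 33 genes of G1 control and cell cycle transcription, 18 were positive and the median was 0.04. Of these RBL2, a pocket protein that represses cell cycle genes in quiescent cells, was the 1 that passed. RBL2 had 5.75 to 21.5 CPM in heterozygotes and 10.4 to 43.4 CPM in wild type, and fell by 0.99 on the log2 scale (edgeR adjusted p = 0.0155). RB1 itself stood at 0.08.

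By condition, 18 of the 49 rows (36.7%, against 7.96% of all genes) were higher in heterozygotes in all 4 conditions, 21 in 3, 6 in 2 and 4 in 1 (GINS2, ORC1, CENPF and BIRC5). Among the 18 were MCM3, MCM5, CDC6, TYMS, RRM1 and PCNA of replication, and KIF23, TTK, CCNA2, CDK1, plk1 and cdc25b of mitosis. No member passed in any single condition in edgeR, DESeq2 or limma voom. Of all genes, DESeq2 called 0.31% and limma voom 0.0251% in unstressed DMSO, 0.126% and 0.00502% in unstressed imiquimod, 0.359% and 0.00502% in phenylhydrazine with DMSO, and 0.0145% and 0% in phenylhydrazine with imiquimod.

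In unstressed DMSO embryos, 40 of 49 members were positive (median 0.28 for replication, 0.41 for mitosis), 3 had an unadjusted p under 0.05 (6.12%, against 8.17% of all genes), and 0.00502% of all genes were called. Of all genes 51.1% were positive. The count of 3 was 1 without wild-type replicate 3, 9 without wild-type replicate 2 and 6 without S1 to S6. Shares of all genes at that p are not given for these fits, so a change common to all genes cannot be told apart. MCM6, a helicase subunit, had 533, 409, 469 and 480 CPM in heterozygotes and 327, 310 and 204 CPM in wild type. Every heterozygous library was above every wild-type one, and the difference was 0.63 ± 0.23 (interval 0.16 to 1.1; edgeR adjusted p = 0.517). MCM6 was 1 of 3 members with ranges apart upward in this condition, where 4.66% of all genes had them, and none had ranges apart downward (1.86% of all genes). CCNA2 had 89.8, 138, 112 and 57.6 CPM in heterozygotes and 40.9, 67.5 and 30.7 CPM in wild type, with 1 heterozygous library inside the wild-type range (0.98 ± 0.33, interval 0.30 to 1.66; edgeR adjusted p = 0.480). Erythroid markers were higher in heterozygotes here in 13 of 16 cases (median 0.64); with their level as a covariate 12 of 22 replication genes were positive (median 0.05) and 24 of 27 mitosis genes (median 0.44). With the neutrophil covariate 14 of 22 replication genes were positive (median 0.09) and 25 of 27 mitosis genes (median 0.52). Without heterozygous replicate 1 the replication median was 0.13, and without wild-type replicate 3 the medians were 0.17 and 0.21, while without wild-type replicate 2 the mitosis median was 0.62.

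In unstressed imiquimod embryos, 16 of 22 replication genes were positive (median 0.21) and 12 of 27 mitosis genes were (median -0.09), where 46.9% of all genes were positive and 0.00502% were called. The difference between the classes was not tested, and 3 members had an unadjusted p under 0.05 (6.12%, against 4.06% of all genes). aurka had 12.2, 11.8 and 18.9 CPM in heterozygotes and 21.6, 25.7, 37.5 and 27.5 CPM in wild type. All heterozygous libraries lay below all wild-type ones, a difference of -1.05 ± 0.48 (edgeR adjusted p = 1.0). cdc25b went the other way, with 42.3, 90.1 and 60.5 CPM in heterozygotes and 28.9, 36.6, 34.8 and 37.7 CPM in wild type (0.81 ± 0.36). In all, 3 members had ranges apart upward (cdc25b, CDK1 and TPX2; 4.13% of all genes) and 2 downward (aurka and PRC1 ENSDARG00000100918; 2.87%). The sign of the mitosis median here was not firm: without wild-type replicate 3 it was 0.14, without heterozygous replicate 1 (S2) it was 0.04, and with the neutrophil covariate 0.03. The replication median was 0.11 without wild-type replicate 3 and 0.03 without heterozygous replicate 1. Without the libraries high in pancreas genes, which leaves 1 heterozygous library here, 6 of 27 mitosis genes were positive (median -0.44).

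In phenylhydrazine-stressed DMSO embryos, 40 of 49 were positive (medians 0.25 and 0.40), 7 had an unadjusted p under 0.05, all higher (14.3%, against 7.83% of all genes), and 0.00502% of all genes were called. Of all genes 53.6% were positive. The count of 7 was 3 without heterozygous replicate 3, 3 without wild-type replicate 3, and 3 without heterozygous replicate 5, of which 1 was then lower. Shares of all genes at that p are not given for these fits, so a change common to all genes cannot be told apart. KIF23 had 32.3, 38.3, 50.7, 51.4 and 78.4 CPM in heterozygotes and 21.6, 22.8 and 31 CPM in wild type. The ranges were apart, as for 3 other members (kif20a, SMC4 and MCM10; 1.84% of all genes, with none downward against 1.37%), and the difference was 0.91 ± 0.38 (interval 0.14 to 1.68; edgeR adjusted p = 0.624). kif20a, a second cytokinesis kinesin, stood at 1.07 ± 0.46. The replication median was 0.05 without wild-type replicate 1, 0.16 without heterozygous replicate 5 and 0.46 without wild-type replicate 2. Libraries of this condition fell into separate sets by marker level. Stem and progenitor markers summed to 953 to 1355 CPM in wild-type replicate 1 and heterozygous replicates 1 to 3. They summed to 1809 to 2834 CPM in the others. Neutrophil markers summed to 14160 to 20620 CPM in the first set and 7316 to 9606 CPM in the second. Leaving out wild-type replicate 1 removes the only wild-type library of the first set. Each set was also a single run of library numbers, the first set before the second. Within this condition, marker level and library number therefore cannot be told apart. A term for the sets was not fitted. Erythroid markers were lower in heterozygotes in this condition in 15 of 16 cases (median -0.65); with their level as a covariate the medians were 0.35 and 0.44.

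In stressed embryos given imiquimod, 43 of 49 were positive (medians 0.30 and 0.40), 3 had an unadjusted p under 0.05 (6.12%, against 3.51% of all genes), and no gene of all those tested was called (0%). Of all genes 47.0% were positive. The count of 3 was 8 without heterozygous replicate 1 (S6) and 9 without S1 to S6, with medians then of 0.35 for replication and 0.54 for mitosis. Shares of all genes at that p are not given for these fits. A rise common to all genes therefore cannot be told apart from a rise of the members. TTK had 60.2, 108, 83.2 and 55.3 CPM in heterozygotes and 16, 31.2, 22.6 and 32.3 CPM in wild type. The lowest heterozygous library was well above the highest wild-type one, and the difference was 1.49 ± 0.40 (interval 0.68 to 2.30; edgeR adjusted p = 1.0). KIF23 had 51.1, 60.8, 60.0 and 42.5 CPM in heterozygotes and 37.0, 17.9, 24.8 and 28.6 CPM in wild type (0.89 ± 0.36). TYMS had 59.8, 62.1, 71.6 and 43.0 CPM in heterozygotes and 40.8, 31.9, 34.6 and 33.5 CPM in wild type (0.65 ± 0.34). These were among 6 members with ranges apart upward, with CCNB1, CDT1 and SMC2, where 2.57% of all genes had them; none were apart downward (0.843%).

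**Figure D4:**
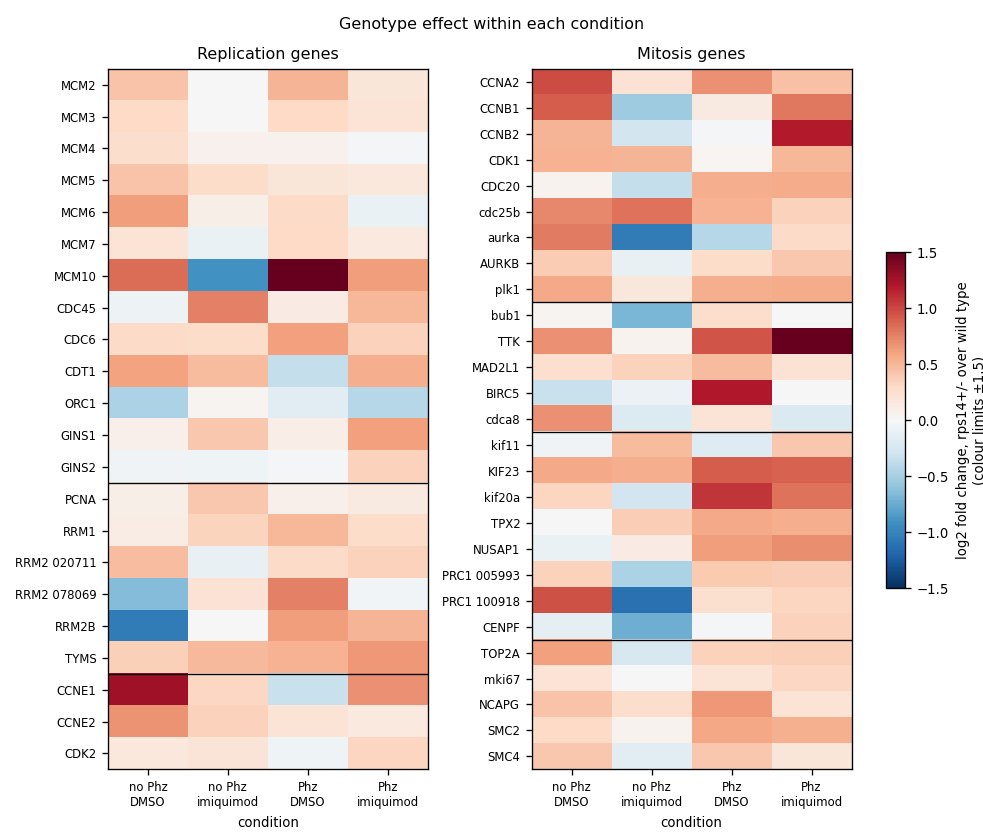
Heat map of the log2 fold change of heterozygous over wild type for each of the 49 rows in each of the 4 conditions, with colours limited at ±1.5. The unstressed imiquimod column holds the most values below 0, with 28 of 49 positive against 40, 40 and 43 in the others.

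Phenylhydrazine was set against no stress over both genotypes and treatments. From S7 to S33, each combination of stress and treatment was a single run of library numbers, with the unstressed libraries first. Within those libraries the effects of stress and of imiquimod cannot be told apart from library number. The labels do not say what the numbers stand for. S1 to S6 held no library of phenylhydrazine with DMSO. With stress, 16 of 22 replication genes were positive (median 0.15) and 18 of 27 mitosis genes were (median 0.08), where the median of all genes was -0.06 and 44.2% were positive. No member passed in edgeR, which called 0.0201% of all genes, nor in DESeq2 (0.785%) or limma voom (0.0853%). Of members, 8 had an unadjusted p under 0.05 (16.3%, against 12.4% of all genes): 6 replication and 1 mitosis gene higher, and 1 mitosis gene lower. With 1 library left out, 3 to 9 replication genes were higher at that p, and the count over all members was lowest, at 4, without wild-type phenylhydrazine DMSO replicate 2. RRM2 (ENSDARG00000020711) had 41.6 to 130.0 CPM in stressed embryos (median 66.8) and 24.4 to 97.6 CPM in unstressed ones (median 48.2), a difference of 0.57 ± 0.16 (interval 0.24 to 0.91; edgeR adjusted p = 0.158). MCM4 had 261 to 521 CPM in stressed embryos (median 388) and 247 to 473 CPM in unstressed ones (median 305), a difference of 0.28 ± 0.10 (interval 0.07 to 0.48; edgeR adjusted p = 0.229). PCNA differed by 0.26 ± 0.11 and MCM3 by 0.24 ± 0.10. Of the mitosis genes, aurka had 8.78 to 47.1 CPM in stressed embryos (median 25.6) and 6.14 to 37.5 CPM in unstressed ones (median 21.4), a difference of 0.57 ± 0.23 (interval 0.11 to 1.03; edgeR adjusted p = 0.281). KIF23 went the other way, with 17.9 to 78.4 CPM in stressed embryos (median 37.6) and 12.1 to 85.5 CPM in unstressed ones (median 56.4), a difference of -0.42 ± 0.18 (interval -0.80 to -0.04; edgeR adjusted p = 0.346).

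Further replication genes did likewise in 38 of 44 cases (median 0.16, with LIG1, the ligase that joins Okazaki fragments, at 0.46 ± 0.13), and further mitosis genes in 27 of 49 (median 0.01). Erythroid markers were higher with stress in 13 of 16 cases (median 0.40), with a summed level of 1090 to 4090 CPM in stressed embryos and 882 to 3160 CPM in unstressed ones. With that level as a covariate, 12 of 22 replication genes were positive with a median of 0.05, and 2 were higher at an unadjusted p under 0.05. Neutrophil markers were lower with stress in 6 of 6 cases (median -0.35), with a summed level of 7320 to 20600 CPM in stressed embryos and 5860 to 32500 CPM in unstressed ones. With that level as a covariate the replication median was 0.07, and 1 replication gene was higher at an unadjusted p under 0.05. Without S1 to S6 the medians were 0.26 for replication and -0.01 for mitosis, and without the 4 libraries high in pancreas genes 0.19 and 0.27, so the mitosis median changed sign or size with these libraries. It was below the replication median without S1 to S6 and above it without the 4 libraries, and the difference between the classes was not tested. Leaving out single libraries moved the replication median to between 0.13 and 0.24 (the highest without wild-type phenylhydrazine DMSO replicate 1) and the mitosis median to between 0.04 (without wild-type unstressed DMSO replicate 3) and 0.15 (without heterozygous unstressed imiquimod replicate 3).

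The ranges of the first RRM2 row with and without phenylhydrazine were apart under imiquimod and overlapped in DMSO. In heterozygotes given imiquimod, RRM2 (ENSDARG00000020711) had 58.8, 81.6, 95.1 and 130.0 CPM with phenylhydrazine and 28.7, 25.9 and 57.1 CPM without it (1.34 ± 0.35, interval 0.63 to 2.04; edgeR adjusted p = 0.421). In wild type given imiquimod it had 81.0, 69.2, 59.5 and 59.7 CPM with phenylhydrazine and 42.6, 38.2, 40.1 and 30.7 CPM without it (0.88 ± 0.31; edgeR adjusted p = 0.590). Neither pair overlapped, where 3.62% of all genes had ranges apart upward in heterozygotes and 1.84% in wild type. The second RRM2 row (ENSDARG00000078069), between which and the first reads may be split, did not rise likewise. In these heterozygotes it had 0.63, 19.3, 16.7 and 0.525 CPM with phenylhydrazine and 14.9, 14.9 and 27.7 CPM without it. In wild type it had 0.502, 12.4, 20.6 and 1.6 CPM with phenylhydrazine and 15.9, 17.4, 15.3 and 13.3 CPM without it. The rows were not summed, so the ranges apart hold for the first row alone. Whether RRM2 as a whole differed with phenylhydrazine was not tested. In heterozygotes in DMSO the first row had 70.9, 43.5, 106, 47.7 and 65.5 CPM with phenylhydrazine and 97.6, 53.7, 63.2 and 71.5 CPM without it. In wild type in DMSO the first row had 68.1, 46.3 and 41.6 CPM with phenylhydrazine and 57.5, 62.5 and 24.4 CPM without it, so both DMSO pairs overlapped. The interaction of phenylhydrazine with imiquimod was 1.07 ± 0.33 for the first row (interval 0.40 to 1.73; edgeR adjusted p = 0.336), which did not pass.

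**Figure D5:**
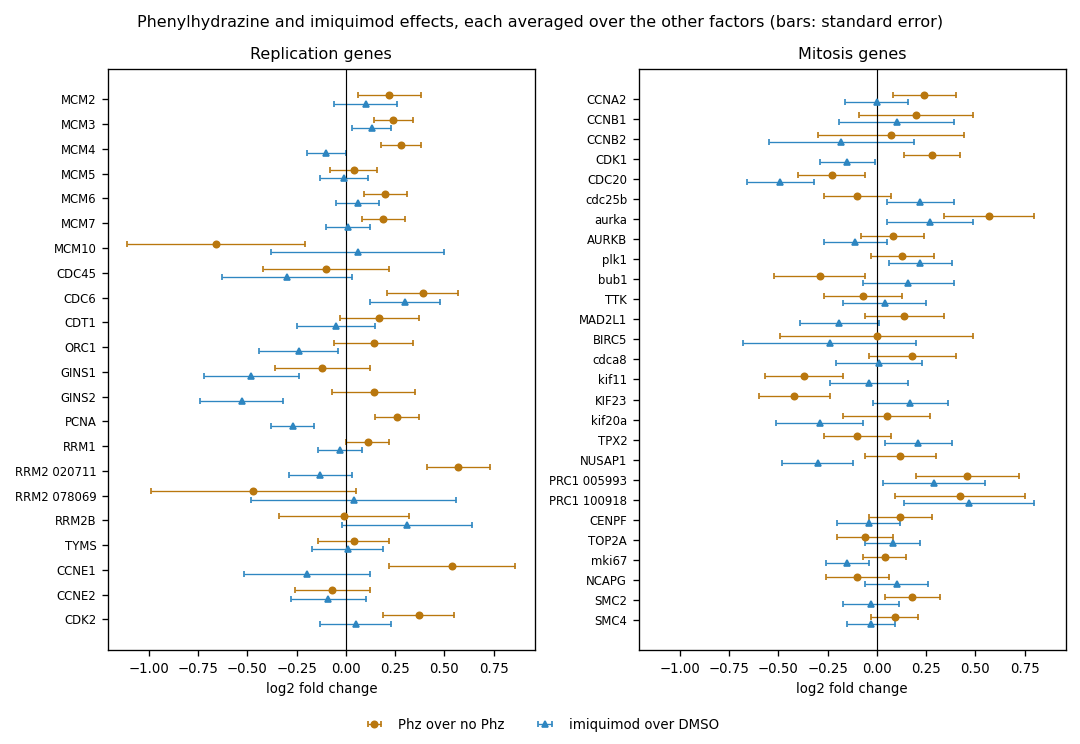
Log2 fold change with SE for each of the 49 rows, for phenylhydrazine over no phenylhydrazine and for imiquimod over DMSO, each averaged over the other 2 factors. The first RRM2 row (0.57) and aurka (0.57) lie highest among the named members for phenylhydrazine, and GINS2 (-0.53) and CDC20 (-0.49) low for imiquimod.

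With imiquimod against DMSO, 10 of 22 replication genes (median -0.02) and 13 of 27 mitosis genes were positive, against 57.3% of all genes with a median of 0.06. No member passed in edgeR, DESeq2 or limma voom, which called 0.00502%, 0.271% and 0.0251% of all genes, and 3 had an unadjusted p under 0.05, all lower (6.12%, against 8.98% of all genes). Without the 4 libraries high in pancreas genes, 6 of 22 replication genes (median -0.06) and 9 of 27 mitosis genes (median -0.07) were positive, and the 3 at that p were all mitosis genes. CDC20 had 13.3 to 41.0 CPM with imiquimod (median 25.3) and 21.8 to 58.3 CPM with DMSO (median 33), a difference of -0.49 ± 0.17 (interval -0.83 to -0.15; edgeR adjusted p = 0.343). GINS2, of the helicase activator GINS, had 10.2 to 30.3 CPM with imiquimod (median 18.4) and 11 to 60.2 CPM with DMSO (median 24.7), a difference of -0.53 ± 0.21 (interval -0.97 to -0.10; edgeR adjusted p = 0.425). PCNA had 449 to 832 CPM with imiquimod (median 571) and 477 to 1240 CPM with DMSO (median 734), a difference of -0.27 ± 0.11 (interval -0.50 to -0.05; edgeR adjusted p = 0.425). All 3 overlapped between treatments. The partner subunit GINS1 stood at -0.48 ± 0.24, while CDC6 stood at 0.30 ± 0.18 and plk1 at 0.22. Further replication genes were negative in 37 of 44 cases with a median of -0.09, so their shift was small. Of those, WDHD1, a replication fork protein, stood at -0.48 ± 0.16 (edgeR adjusted p = 0.300). Stem and progenitor markers were lower with imiquimod in 11 of 12 cases (median -0.16) and macrophage markers higher in 11 of 15 (median 0.45); their part was not tested.

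The tests of difference between conditions gave no member that passed in edgeR, DESeq2 or limma voom. DESeq2 called 0.121% of all genes for genotype by phenylhydrazine, 0.116% for genotype by imiquimod and 0.494% for phenylhydrazine by imiquimod, and limma voom called 0%, 0% and 0.0452%. For genotype by phenylhydrazine edgeR called no gene at all (0%); 22 of 27 mitosis genes were positive (median 0.28, against 52.7% positive and a median of 0.04 for all genes) and 3 members had an unadjusted p under 0.05 (6.12%, against 5.56% of all genes). These were CDC20 (0.70 ± 0.34, interval 0.02 to 1.38; edgeR adjusted p = 0.891), kif20a (0.93 ± 0.45) and TTK (0.85 ± 0.41). For genotype by imiquimod edgeR also called no gene (0%), 5 of 27 mitosis genes were positive (median -0.20, all genes -0.09) and the replication median was 0.01. MCM6 was the 1 member at an unadjusted p under 0.05, at -0.46 ± 0.22 (interval -0.91 to -0.01, edgeR adjusted p = 0.835). Shares of all genes positive or at that p are not given here for genotype by imiquimod. The median of all genes was itself below 0 there, so the low count of positive mitosis genes is not particular to them. For phenylhydrazine by imiquimod edgeR called 0.0351% of all genes; besides RRM2, CENPF stood at 0.83 ± 0.33 (edgeR adjusted p = 0.457) and kif20a at 1.05 ± 0.45. The genotype difference in unstressed imiquimod embryos was not tested against that in any other single condition.

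Within a genotype, libraries with more CCNG1 were not measurably lower in MCM5 or TOP2A, the 2 members examined. Other members and the class means were not examined in this way. Between CCNG1 and MCM5, log2 CPM gave Pearson r = -0.0811 in 16 heterozygous libraries (permutation p = 0.77; Spearman rho -0.232, p = 0.386) and r = -0.0756 in 14 wild-type libraries (permutation p = 0.798; rho 0.0418, p = 0.89). Between CCNG1 and TOP2A, r was 0.232 in heterozygotes (permutation p = 0.39; rho 0.303, p = 0.253) and 0.0602 in wild type (permutation p = 0.838; rho -0.0286, p = 0.928). MCM5 and TOP2A showed no measurable relation within a genotype either, with r = -0.0669 in heterozygotes (permutation p = 0.809; rho -0.0118, p = 0.969) and 0.217 in wild type (permutation p = 0.458; rho 0.0769, p = 0.795). With so few libraries a relation of modest size could go unseen. Adjusted over the 6 relations, each Pearson p was 0.838 and each Spearman p was 0.969. Without the 2 libraries farthest on the x axis, r was -0.32 in heterozygotes and 0.0544 in wild type for CCNG1 and MCM5. For CCNG1 and TOP2A it was then 0.0791 in heterozygotes and 0.402 in wild type, and for MCM5 and TOP2A 0.217 in heterozygotes and 0.0534 in wild type. With group means removed, r for CCNG1 and MCM5 was -0.22 in heterozygotes and -0.129 in wild type. It was then 0.417 and 0.148 for CCNG1 and TOP2A, and -0.129 and 0.197 for MCM5 and TOP2A. No adjusted permutation p of these r values was below 0.648. No pooled r is given, because CCNG1 separates the genotypes.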

How the data were processed

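Smart-seq2 libraries (no molecular identifiers) were analysed from the raw gene counts as deposited, made by the authors, per the submitters' processing notes, with FastQC 0.11.9, Trimmomatic 0.39, HISAT2 2.1.0, SAMtools 1.9 and featureCounts of Subread 2.0.0 on GRCz11; annotation release and strand setting are not given in the sources used here. Symbols came from a reference table that pairs gene IDs with symbols (19528 IDs matched).

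Counts were fitted with edgeR 4.0.16 (R 4.3.3): 8 groups in 1 model, TMM factors 0.896 to 1.07, filterByExpr with a minimum count of 10 (19930 genes), robust quasi-likelihood tests and Benjamini-Hochberg adjustment over all genes (threshold 0.05). Log2 fold changes carry standard errors. Intervals are 95%. CPM is the share of a library's total and is not per length, so levels are not compared between genes; class means use log2(CPM + 1). Relations used 100000 permutations. Alternatives were RLE scaling, DESeq2 1.42.0, voom of limma 3.58.1, no and a stricter low-count filter (1 CPM in 15 libraries), a replicate block, S1 to S6 left out or as a term, and each library left out. Added after seeing the data were neutrophil and erythroid covariates and a fit without the 4 libraries high in pancreas genes. For alternative fits, shares of all genes are given only for DESeq2 and limma voom. The test was checked on simulated data. Members and lists were chosen with earlier results of these data known. Genes with full values were, in each averaged contrast, the 4 replication and 6 mitosis members of smallest p, a set of standard cycle genes, and 2 per class in single conditions. No promoter or protein sequence is printed, and 1 gene of the growth-arrest list is not reported here.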

Additional observations from a re-analysis of the deposited data

Results flagged for a closer look

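In 150 checks of 1 gene in 1 group of 4 or 5 libraries, 10 found 1 library far from the others of its group. Chance gives about 1 in 20. All 10 were heterozygous libraries, which made up 3 of the 5 groups large enough to check.

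Among unstressed DMSO heterozygotes, replicate 2 was high in TYMS (86.8 CPM, others 38.1 to 44.2) and in CDC20 (52.4 CPM, others 31.4 to 33). Replicate 1 was low in RRM1 (256 CPM, others 310 to 321) and high in GINS2 (45.2 CPM, others 23.3 to 25.6). Replicate 4 was low in PCNA (477 CPM, others 734 to 781).

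Among phenylhydrazine DMSO heterozygotes, replicate 4 was high in RRM1 (564 CPM, others 312 to 359) and in GINS2 (60.2 CPM, others 13.3 to 21.6), and held the highest PCNA value. Replicate 5 was high in CCNE2 (39.3 CPM, others 14.2 to 20.3) and in CCNB1 (43.6 CPM, others 19.5 to 26.1). Among phenylhydrazine imiquimod heterozygotes, replicate 2 was high in NUSAP1, a spindle protein (72.0 CPM, others 40.0 to 43.9).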

How the results depend on the processing

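For the averaged genotype comparison, the count of members passing was 0 in the fit reported, 3 with DESeq2 and 1 each with the replicate block (CCNA2), without S1 to S6 (plk1), with the neutrophil covariate and with the erythroid covariate (TTK in both). Leaving out 1 library gave 0 to 3: 3 without wild-type unstressed DMSO replicate 2, and 1 without wild-type unstressed imiquimod replicate 3, heterozygous unstressed DMSO replicate 4, wild-type phenylhydrazine DMSO replicate 1 or heterozygous phenylhydrazine DMSO replicate 4. In the other 17 contrasts it was 0 in every setting run. Except for DESeq2, the shares of all genes called in the fits with members passing are not given here. The kif11 difference with phenylhydrazine, -0.37, was 0.11 without the 4 libraries high in pancreas genes. The second RRM2 row (genotype, 0.07) was -0.42 with voom, -0.07 with the block, -0.02 with a term for S1 to S6, -0.03 without the 4 libraries, and -0.13 to 0.29 with 1 library left out. Without the 2 farthest libraries, r turned to 0.0544 (CCNG1 and MCM5, wild type) and 0.217 (MCM5 and TOP2A, heterozygotes). The causes were not tested. Same-numbered libraries of different groups had a median correlation of 0.0145 (8 of 94 pairs over 0.1). Differently numbered ones had a median of -0.00843 (7 of 298 pairs over 0.1). Pairs over 0.1 were thus a larger share among same-numbered libraries. S1 to S6 were all replicate 1 of their groups, so for them replicate number and library number cannot be told apart. In phenylhydrazine with DMSO, some same-numbered libraries of the genotypes lay in different marker sets, which limits the block there. Of 30 libraries, 10 correlated best with their own number. The numbers were not taken to pair the samples in the fit reported. With the block the averaged genotype medians were 0.22 (replication) and 0.29 (mitosis), the replication median was 0.12 in phenylhydrazine with DMSO and 0.12 in unstressed imiquimod, and the mitosis median there was -0.15. Counts were low for some rows (CCNE1, CCNB2, MCM10, RRM2B and the second RRM2 row had 0 to 4 counts in a library), which limits their values.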
